A study of Homo sapiens with 21 samples.

Results

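Accessible chromatin at the genes of the cell cycle and of DNA replication was described in human microglia-like cells, as called by ATAC-seq, an assay that uses a transposase to tag accessible DNA. The list held 40 genes, and a region of open chromatin was counted for the nearest protein-coding gene span within 100 kb. This gave 206 of the 166736 regions called in the series, at 39 of the 40 genes, because no region lay nearest to CCNE2. The 21 libraries came from 7 lines of H9 (an established line of human embryonic stem cells), with 3 libraries a line. The edited lines were TREM2-R47H, TREM2-KO, SORL1-A528T, SORL1-KO, CD33 SNP and INPP5D SNP, and WT was unedited H9. TREM2 encodes a lipid receptor of microglia, SORL1 a sorting receptor (altered by a premature stop in SORL1-KO, per the protocols), CD33 a sialic acid receptor and INPP5D a phosphatase of inositol lipids. Per the labels' protocols, each edit was made homozygous with CRISPR/Cas9, and for INPP5D the parental cells were already heterozygous. Edited cells were isolated as clones, and the labels do not number the clones behind each line. All lines, WT included, passed through haematopoietic progenitors and 28 days of microglial medium with IL-34, TGF-beta and M-CSF, with CD200 and CX3CL1 in the final days, before 80000 viable cells were sorted for each line.

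A dividing cell first licenses its replication origins by loading the MCM2-7 helicase with CDC6, and then fires them with CDC45 and the GINS complex, while PCNA clamps the polymerase to DNA. Entry into S phase is set by cyclins D and E with CDK4, CDK6 and CDK2, which phosphorylate RB1 and so free the E2F factors, and the inhibitors CDKN1A, CDKN1B and CDKN2A hold these kinases back. Mitosis is driven by CDK1 with cyclins A and B, and by the Aurora and Polo kinases, under the spindle checkpoint of BUB1 and MAD2L1. Microglia renew themselves slowly under signals of the CSF1 receptor, which both IL-34 and M-CSF engage. The promoters of cell cycle genes are also occupied in resting cells, where complexes with RB-family repressors sit on them.

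The promoters of these genes carry short motifs that differ with their phase. E2F factors bind the letters TTTCCCGC, TTTCGCGC, TTTGCCGC or TTTGGCGC, the mitotic repressor and activator complexes with MuvB bind the CHR element TTTGAA or TTCGAA, and the factor NF-Y binds CCAAT. These letters were searched on both strands in the RefSeq promoter (GRCh38.p14, 250 bases before to 50 after the start), which was found for 33 of the 40 genes. The E2F letters stood in 7 of the 9 promoters of replication genes, in 4 of the 9 of the genes of entry into S phase and in 1 of the 12 of mitotic genes, that of CDK1. The CHR letters stood in 8 of the 12 mitotic promoters, and in 1 promoter of each of the replication and S-phase entry groups, MCM6 and E2F3. Over all 33 promoters, E2F letters stood in 36.4%, CHR letters in 30.3% and CCAAT in 69.7%, against 4.45%, 13.5% and 36.3% of 15813 protein-coding promoters. In 60 promoters of a wider list of cell cycle genes the shares were 23.3%, 21.7% and 43.3%. The inhibitor promoters held neither E2F nor CHR letters, and CDKN1B alone among them held CCAAT. The starts listed for some genes, AURKB and RB1 among them, lie inside the gene span, so the stretch counted need not be the main promoter. A match is a description of letters and not of a bound factor.

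**Figure D1:**
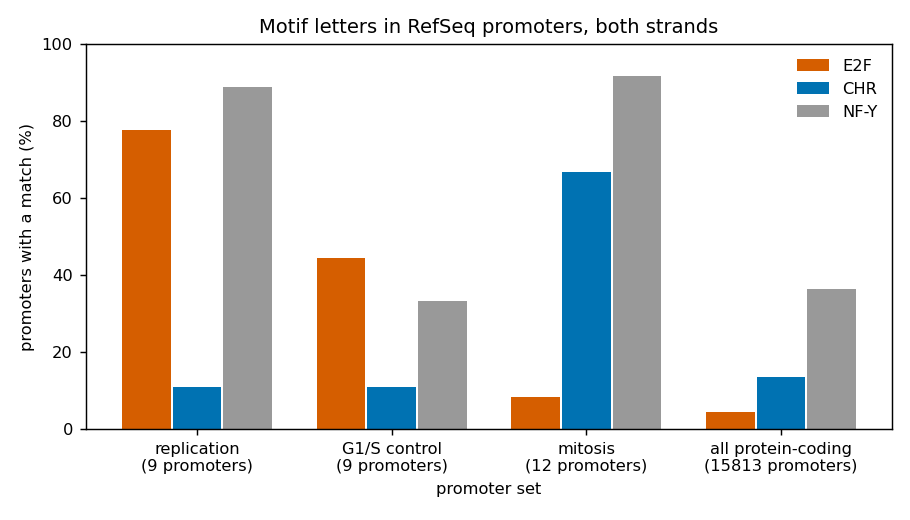
The bars give the share of RefSeq promoters (vertical axis, percent) that hold the E2F, CHR or NF-Y letters on either strand, for 9 replication, 9 S-phase entry and 12 mitosis promoters of the listed genes and for 15813 protein-coding promoters. E2F letters were in 77.8% of replication promoters and CHR letters in 66.7% of mitotic promoters.

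The sequences below are shown because they carry these letters, or because their region was missing from some libraries (E2F2 and AURKB). CCNB1 is shown because 2 regions upstream of it stood lower in the peak lists of TREM2-R47H than of WT. Neither passed the main test, and both passed with libraries paired by replicate number, as described below. Those upstream regions lie outside the printed stretch, and at its start the 2 groups overlapped. All run 5′ to 3′ on the strand of the gene, capitals mark every E2F, CHR and CCAAT match on either strand, and overlapping matches run together. A position is that of the first base of a match as printed, with -1 for the last base before the start. MCM6, a helicase subunit (chromosome 2, minus strand, 135876394 to 135876693), has overlapping E2F matches on opposite strands at -152 and -148, and again at -90 and -86, besides 1 CHR match and 2 CCAAT matches. E2F1, the founding E2F factor (chromosome 20, minus strand, 33686336 to 33686635), has an E2F match on each strand just before its start, at -33 and -20. E2F2 (chromosome 1, minus strand, 23531184 to 23531483) has 1 at -42. CCNB1, the cyclin B of CDK1 (chromosome 5, plus strand, 69166900 to 69167199), has 2 CCAAT matches and no CHR or E2F match in these spellings. MKI67, the Ki-67 protein that coats mitotic chromosomes (chromosome 10, minus strand, 128126374 to 128126673), has CHR matches at -47 and -29 and 2 CCAAT matches on the opposite strand. AURKB, the Aurora kinase of the chromosomal passenger complex (chromosome 17, minus strand, 8210176 to 8210475), has 1 CCAAT on the opposite strand. The start listed for AURKB, 8210225, lies inside the gene span, which runs to 8210575. The stretch printed for it need not be its main promoter.
MCM6: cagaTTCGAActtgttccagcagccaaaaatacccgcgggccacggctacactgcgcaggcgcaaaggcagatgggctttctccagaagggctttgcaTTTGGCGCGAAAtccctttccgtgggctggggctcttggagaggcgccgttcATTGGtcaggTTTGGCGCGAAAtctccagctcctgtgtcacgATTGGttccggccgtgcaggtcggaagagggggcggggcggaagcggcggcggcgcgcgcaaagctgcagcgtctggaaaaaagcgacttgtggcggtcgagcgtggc
E2F1: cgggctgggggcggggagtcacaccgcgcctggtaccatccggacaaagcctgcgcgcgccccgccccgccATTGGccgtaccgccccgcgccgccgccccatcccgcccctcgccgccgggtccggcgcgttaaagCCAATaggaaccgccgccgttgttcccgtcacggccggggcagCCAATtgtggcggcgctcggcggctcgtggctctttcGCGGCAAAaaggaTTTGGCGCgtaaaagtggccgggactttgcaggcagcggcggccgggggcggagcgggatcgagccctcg
E2F2: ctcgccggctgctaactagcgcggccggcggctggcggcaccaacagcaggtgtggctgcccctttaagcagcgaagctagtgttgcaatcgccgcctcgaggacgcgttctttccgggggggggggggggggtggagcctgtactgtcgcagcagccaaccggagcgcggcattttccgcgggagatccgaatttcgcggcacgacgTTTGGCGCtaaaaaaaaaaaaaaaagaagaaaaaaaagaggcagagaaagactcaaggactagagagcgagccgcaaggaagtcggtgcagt
CCNB1: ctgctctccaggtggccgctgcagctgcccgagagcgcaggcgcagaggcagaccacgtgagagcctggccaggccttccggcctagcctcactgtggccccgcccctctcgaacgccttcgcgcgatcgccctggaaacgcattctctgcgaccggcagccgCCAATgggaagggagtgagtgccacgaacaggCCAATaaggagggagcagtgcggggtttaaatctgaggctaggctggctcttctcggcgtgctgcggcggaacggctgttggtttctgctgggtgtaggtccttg
MKI67: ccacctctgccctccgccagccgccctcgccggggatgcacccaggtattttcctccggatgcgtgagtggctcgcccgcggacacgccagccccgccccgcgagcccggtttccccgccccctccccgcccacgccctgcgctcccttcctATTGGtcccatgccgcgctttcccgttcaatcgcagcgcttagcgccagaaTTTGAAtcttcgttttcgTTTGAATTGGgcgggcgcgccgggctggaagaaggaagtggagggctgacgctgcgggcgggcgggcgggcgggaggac
AURKB: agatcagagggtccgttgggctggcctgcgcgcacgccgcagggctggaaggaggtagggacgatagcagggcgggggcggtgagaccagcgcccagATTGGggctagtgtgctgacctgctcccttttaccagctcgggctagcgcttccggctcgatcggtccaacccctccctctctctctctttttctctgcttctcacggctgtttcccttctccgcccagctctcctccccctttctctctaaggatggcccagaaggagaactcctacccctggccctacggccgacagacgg

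The libraries differed most by replicate number, which sets a limit on each value that follows. Tags per library, in units of M (1000 times 1000), numbered 56.5 to 67.4 in replicate 1, 12.8 to 17.5 in replicate 2 and 32.6 to 52.9 in replicate 3, and the lists held 39736 to 102891 peaks. The fragment length in the list headers was 74 in replicates 1 and 3 and 136 to 494 in replicate 2. The libraries titled SORL1-A528T have a genotype label that names TREM2-KO, so each value for SORL1-A528T refers to libraries of that title. The labels do not say that the 3 libraries of a line were differentiated separately, and the spread behind each p-value may therefore be technical. Each edited line was compared with the same 3 WT libraries. Of 15 microglia and macrophage markers, 9 had a start region called in all 21 libraries (SPI1, CX3CR1, P2RY12, TYROBP, C1QA, CD68, PTPRC, MERTK and GPR34), and 9 to 13 had one in each edited library, against 11 to 13 in the WT libraries. TMEM119 and SALL1, which mark microglia in brain, had a start region in none. Of 7 pluripotency markers 4, POU5F1 and NANOG among them, had a start region in no library, while LIN28B had one in all, L1TD1 in 7 and DPPA4 in 6. Of 11 erythroid, megakaryocyte and mast cell markers 8 had a start region in none, while KIT had one in all 21 libraries, ITGA2B in 15 and KLF1 in 14. Of 8 mesenchymal markers most were open in most libraries, PDGFRB in 21, COL1A2 and ACTA2 in 19, TWIST1 in 18, COL1A1 in 15, PDGFRA in 12, TAGLN in 1 and COL3A1 in 0. The number open per library was 3 to 7 in the edited lines and 1 to 6 in WT, and its part in the results was not tested.

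At their start sites the cell cycle genes were open in nearly every library. A region within 1 kb of the start, or of a gene end where no start was listed, was called in all 21 libraries for 35 of the 40 genes (87.5%), against 42.7% of 19974 protein-coding genes. In the genes with a start site in the RefSeq promoter table the shares were 29 of 33 (87.9%) and 44.9% of 15812. For the other genes, MCM4, MCM5, CDK2, CCND1, CCND2, CCNE2 and AURKA, either end of the gene span was taken. The end counted for CDK2 is not its start, and without it the count is 34 (85%). The wider list of 75 cell cycle genes, from the origin recognition complex to the kinetochore, stood at 57 (76%). The count was 35 without the libraries titled SORL1-A528T, and 16 when peaks had to cover 50% of the merged region in each library. The share of all genes was not counted under these settings, so the contrast with all genes is known for the main rule alone. All 11 replication genes, 9 of 13 genes of entry into S phase (CDK2 among them), all 3 inhibitors and 12 of 13 mitotic genes had such a region.

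The peak lists carry no peak height, since the score is 1 for every peak, but their order can stand in for strength. With each list cut into 10 equal steps, peaks of the first step were called in a mean of 19.9 to 20.0 other libraries, and those of the last in 3.7 to 13.4. The place of a region in a list was taken as a percentile, 100 being the first. Across the 35 regions, that of CDK2 included, the median place among the 25599 regions called in all libraries was 76.8 (16.0 to 99.8 over genes), against 73.6 for the 7428 start regions of all genes. Their median width was 2358 bp, against 2207 bp. No test was made of either difference.

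Replication genes held some of the first places in the whole lists. The start region of the helicase subunit MCM3 (chromosome 6, 52283895 to 52285797, GRCh38) stood at 98.2 to 99.7 in all 21 libraries, with a median of 99.0. MCM4, its partner in the helicase ring, stood at 97.3 to 99.0, the clamp PCNA at 93.2 to 98.1 and MCM6 at 85.8 to 96.6. The region over the start of PCNA (chromosome 20, 5126023 to 5128702) lay nearer to CDS2 under the assignment rule and is therefore not among the 206. MCM5 (28.0 to 82.2), the licensing factor CDC6 (45.5 to 91.4), MCM2 (59.5 to 89.4) and the GINS subunit GINS1 (50.8 to 84.1) stood lower and varied more among libraries. Subunits of the same ring were thus far apart in these lists.

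Genes of entry into S phase stood anywhere from the first places to the last. The E2F3 start region (chromosome 6, 20400138 to 20405168) stood at 99.7 to 99.9 and that of CDK6 at 94.5 to 99.5, although the region at E2F3 was nearest to LOC124901482. The region taken for CDK2 (chromosome 12, 55972673 to 55975049), at 98.5 to 99.9, lies at the far end of the gene, where RAB5B is nearest, and not at its start. The region over CCNE2 was nearest to NDUFAF6 and stood at 90.0 to 98.1. E2F1 (chromosome 20, 33685294 to 33688047), whose promoter is printed above, ranged from 0.245 to 92.4, with a median of 81.4. The region counted for the cyclin CCND2, 682 bp outside the gene, ranged from 2.35 to 84.0. Both low values were in WT library 2, of the replicate number with the fewest tags.

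Of the 40 genes, 5 lacked a start region in at least 1 library, and 4 of them act in entry into S phase. These counts depend on the listed start and on the 1 kb margin. CCND2 was counted as called in all 21 through a region 682 bp outside the gene. The region over that gene end itself (chromosome 12, 4273332 to 4274440) was called in 7 libraries. E2F2 (chromosome 1, 23530716 to 23532055) was called in 11 libraries, 2 of TREM2-R47H, 1 of TREM2-KO, 1 of SORL1-A528T, 2 of SORL1-KO, 2 of CD33 SNP, 1 of INPP5D SNP and 2 of WT. The listed start of the cyclin CCND3 (chromosome 6, 42048312 to 42049351) was called in 8 libraries, while 2 regions inside the gene, at 41935660 to 41936865 and 41937519 to 41942453, were called in all 21. CCND1 (chromosome 11, 69640377 to 69641645) was called in 17 and missed in the second libraries of TREM2-KO, SORL1-A528T, INPP5D SNP and WT. AURKB (chromosome 17, 8208704 to 8211097) was also called in 17 and missed in the second libraries of SORL1-A528T, CD33 SNP, INPP5D SNP and WT. The start listed for RB1, the retinoblastoma repressor (chromosome 13, position 48476450), lies near the far end of the gene, and its region was called in 19 libraries, while the region at the first end of the span (48302815 to 48305193) was called in all 21. For CCND1, AURKB and RB1 all missed libraries were of replicate 2, and without that replicate number 38 of the 40 genes had a start region in every library. The matching share of all genes was not counted.

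Inhibitors and mitotic genes also held both high and low places. The region at the start listed for CDKN2A (chromosome 9, 21993262 to 21996519), which is that of the ARF transcript, stood at 95.3 to 98.8. The p16 transcript starts inside the gene span, at a position the table does not list, and the region inside the gene at 21974435 to 21975997 was called in 18 libraries, missing in libraries 2 and 3 of SORL1-A528T and in WT library 2. By contrast CDKN1A, the p21 gene (chromosome 6, 36675833 to 36681252), stood at 37.8 to 97.2 and CDKN1B, the p27 gene, at 37.4 to 95.4. Among mitotic genes the start of the checkpoint protein MAD2L1 (chromosome 4, 120065630 to 120068420) stood at 99.4 to 99.9, that of CDK1 at 96.6 to 99.0, AURKA at 96.6 to 98.9 and cyclin A2, CCNA2, at 96.7 to 98.8. CCNB1 stood at 91.0 to 96.9 and MKI67 at 71.5 to 93.1. The Polo kinase PLK1 stood at 44.9 to 83.6 and the topoisomerase TOP2A at 5.76 to 90.0. All 13 mitotic genes but AURKB were called at their starts in all 21 libraries.

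**Figure D2:**
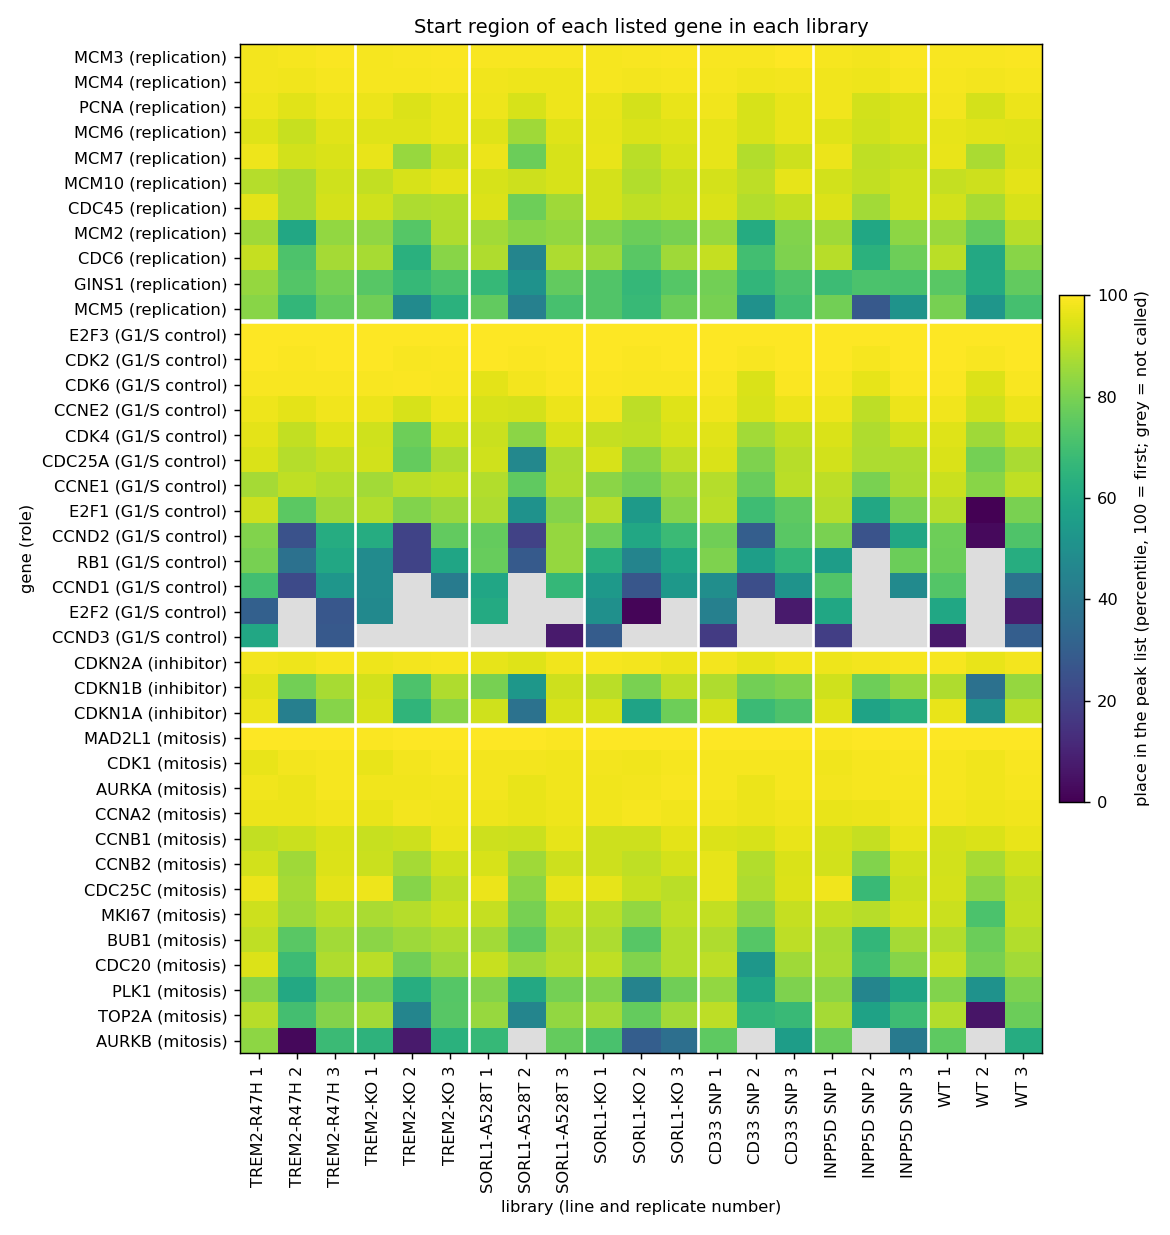
Each cell is the place of a gene's start region in the peak list of 1 library (percentile, 100 being the first, grey where no region was called), with the 40 genes grouped by role on the vertical axis and the 21 libraries on the horizontal axis. MCM3, E2F3 and MAD2L1 stood at 98.2 or higher in every library, and most grey cells are at CCND3 and E2F2. The cells of CDK2 show a region at the far end of that gene.

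Away from their starts, the listed genes had regions that came and went among libraries. Of the 206 regions, all 21 libraries called 55 (26.7%) and 1 library called 27 (13.1%), against 17.1% and 21.8% of the 131157 regions assigned to any gene. Regions at starts were called in all libraries in 30 of 37 cases (81.1%, all genes 53.6%), regions inside genes in 16 of 87 (18.4%, all genes 12.6%) and regions outside genes in 9 of 82 (11%, all genes 13%). Every library called 18.4% of the 103 regions of S-phase entry genes, 41.9% of the 31 of replication genes, 36.4% of the 55 of mitotic genes and 17.6% of the 17 of inhibitors. CDK6, the cyclin D kinase of blood cells, alone had 28 regions, of which 7 were in all libraries, and MAD2L1 had 16, CCND2 14, CCND3 13 and MKI67 12. At the other extreme, 13 genes had a single region, MCM2, MCM7, MCM10, CDC45, CDC20, CCNA2, CCNB2 and PLK1 among them.

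The share of these regions that a library called differed less between lines than between the libraries of a line. The mean share was 61.0% ± 15.6 in TREM2-R47H, 59.9% ± 11.5 in TREM2-KO, 53.1% ± 14.1 in SORL1-A528T, 59.5% ± 13.9 in SORL1-KO, 66.2% ± 14.9 in CD33 SNP and 58.9% ± 14.5 in INPP5D SNP, against 61.6% ± 18.0 in WT (SD, n = 3 each). SORL1-A528T was also lowest and CD33 SNP highest over all regions assigned to genes, with 39.4% and 53.2%, against 49.6% in WT. The spread lay between replicate numbers: 57.3% to 74.8% of the 206 were called in replicate 1, 37.4% to 49.5% in replicate 2 and 64.6% to 74.8% in replicate 3. To take out depth, each call was set against the rate at which its library called regions of equal recurrence (the number of the 21 libraries that call a region), and that rate was subtracted. This adjusted call averaged -0.00672 ± 0.0281 in TREM2-R47H, -0.0163 ± 0.0233 in TREM2-KO, 0.0192 ± 0.00911 in SORL1-A528T, -0.00565 ± 0.0470 in SORL1-KO, 0.00889 ± 0.0259 in CD33 SNP and 0.00123 ± 0.0412 in INPP5D SNP, against -0.000643 ± 0.00827 in WT, as a share of a call per region (SD, n = 3 each). The 3 libraries titled SORL1-A528T, at 0.00999 to 0.0282, lay above the WT libraries, at -0.0073 to 0.00862, while the other lines overlapped WT. No test was made of this difference.

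**Figure D3:**
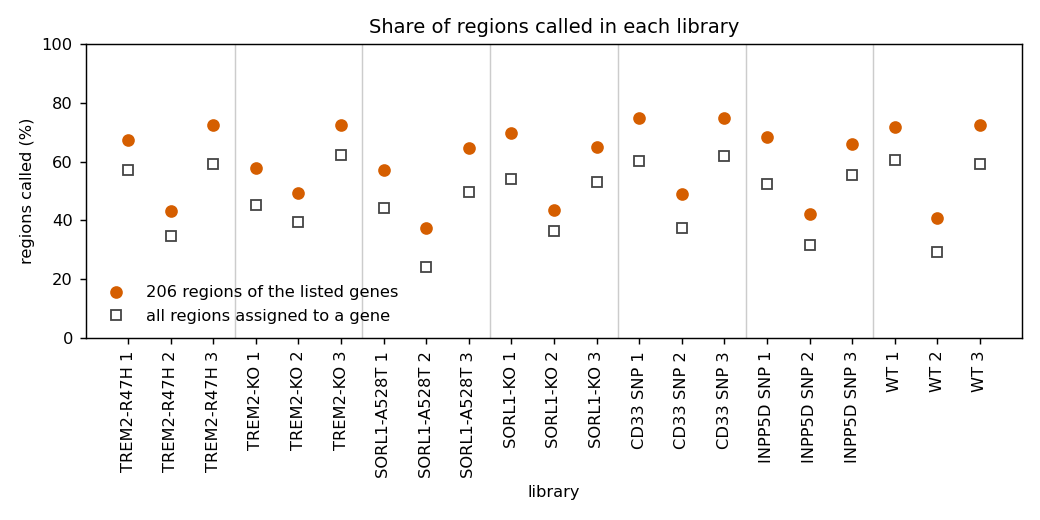
Filled points give the share (vertical axis, percent) of the 206 regions of the listed genes called in each of the 21 libraries, and open squares the share of all 131157 regions assigned to a gene. The listed genes lie above all genes in every library, and both drop in replicate 2 of each line.

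Gene by gene, no call rate passed the test against WT. In bulk libraries such as these, a change in the share of cells with an open site and a change in openness per cell cannot be told apart. The adjusted call was averaged over the regions of each gene with at least 5 regions, which 15 of the 40 genes had, and tested with limma over 8427 genes and all 21 libraries with Benjamini-Hochberg adjustment. In TREM2-R47H against WT 0 of the 15 passed, against 0% of all genes, and 1, MCM5, had an unadjusted p under 0.05, against 8.47% of all genes. MCM5 adjusted calls were 0.47, -0.0511 and 0.294 in TREM2-R47H, against -0.0110, -0.0308 and 0.00354 in WT. TREM2-R47H libraries 1 and 3 were high and library 2 lay below all of WT, so the groups overlapped. The difference was 0.251 (SE 0.0926, adjusted p = 0.504), and TREM2-R47H called 15 of 21 possible regions against 10 in WT. It was 0.395 (adjusted p = 0.0979) without TREM2-R47H library 2 and 0.150 (adjusted p = 1.00) without library 1. Behind the calls were 3 MCM5 regions, at 35446153 to 35446653, 35447886 to 35448393 and 35477688 to 35478416 of chromosome 22, that only TREM2-R47H libraries 1 or 3 called. They are named after their values were seen.

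In the other lines none of the 15 genes passed either. In TREM2-KO 0 of the 15 passed (all genes 0%) and 0 had an unadjusted p under 0.05 (all genes 3.47%), and the smallest p was that of CDKN2A, with a difference of -0.107 (adjusted p = 0.999, and -0.168 to -0.0635 with libraries left out). In SORL1-A528T 0 of 15 passed (all genes 0%, unadjusted 3.99%), and CDKN2A again had the smallest p, with -0.108 (adjusted p = 0.976, and -0.165 to -0.048 with libraries left out). With gene-end regions alone this difference was 0.0252, in the other direction. In SORL1-KO 0 of 15 passed (all genes 0%, unadjusted 4.71%), and E2F3 was lowest in p, with -0.105 (adjusted p = 0.937). In CD33 SNP 0 of 15 passed (all genes 0%, unadjusted 2.48%), and MCM3 had 0.120 (adjusted p = 1.00). None of the 15 reached an unadjusted p under 0.05 in these 4 lines. In INPP5D SNP 0 of 15 passed (all genes 0.0119%), and 1 of 15 had an unadjusted p under 0.05 (all genes 2.88%). This was CDKN2A, whose adjusted calls were 0.0652, 0.118 and 0.267 in INPP5D SNP, against -0.0133, 0.0387 and -0.0111 in WT. All 3 INPP5D SNP libraries were above the WT libraries, and the share of all genes without such overlap is not given here. The difference was 0.146 (SE 0.0583, adjusted p = 0.999). It was 0.0763 without INPP5D SNP library 3, and 0.0763 to 0.19 over all libraries left out. The CDKN2A difference was also positive in TREM2-R47H, at 0.115 (adjusted p = 0.612), and none of the lines passed the test at this gene.

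**Figure D4:**
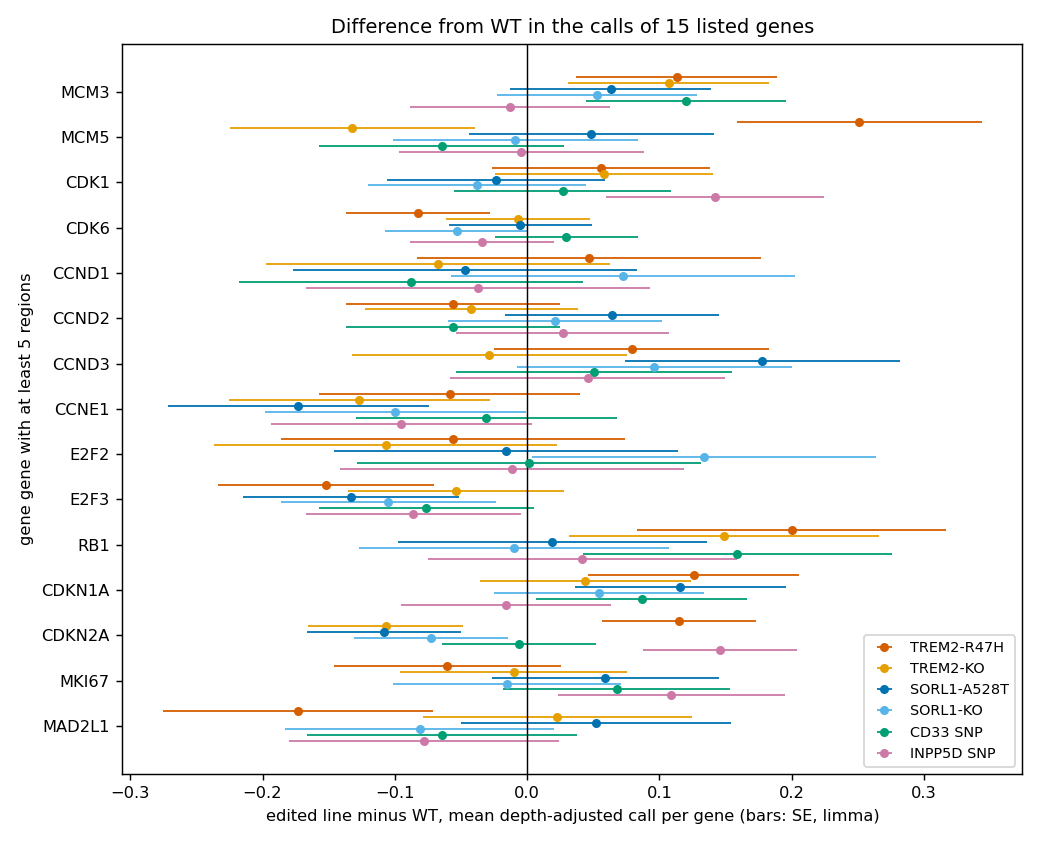
Each point is the difference of an edited line minus WT in the mean adjusted call (horizontal axis, share of a call) of the 15 genes with at least 5 regions, with bars for the SE from limma. The largest is MCM5 in TREM2-R47H at 0.251, and no gene passed the adjusted threshold.

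With every gene that had at least 1 region and a varying call, 26 of the 40 listed genes entered the test. In TREM2-R47H 3 of 26 had an unadjusted p under 0.05 (all 16376 genes 7.39%), which were CDC25A, the phosphatase that activates CDK2, and MCM5, both higher, and AURKA, which was lower. AURKA had 4 of 12 possible calls in TREM2-R47H, against 10 of 12 in WT. None passed the adjusted test, where the smallest adjusted p of the 26 was 0.634. In SORL1-KO 1 of 26 had such a p, CDK2 (all genes 4.51%), whose single region was called in SORL1-KO library 1 and in no other of the 21 libraries. It was 1 INPP5D SNP, CDKN2A (3.15%), and 0 in TREM2-KO (3.52%), SORL1-A528T (3.76%) and CD33 SNP (2.58%).

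Among the 55 regions called in all libraries, the place in the list was compared as a normal score over 25599 regions with limma. In TREM2-R47H against WT 0 of 55 passed the adjusted threshold, against 0.488% of all regions, with 24 higher and 101 lower. Of the 55, 4 had an unadjusted p under 0.05, against 10.4% of all regions, and with the block 11, against 19.3%. With the replicate number as a block, which pairs these libraries, 2 of 55 passed, both lower, against 3.14% of all regions (2.53% lower). The share of listed regions was near that of all regions. The count over all regions was 87 without the libraries titled SORL1-A528T, 336, 10 and 15 without WT library 1, 2 and 3. It was 29, 51 and 50 without TREM2-R47H library 1, 2 and 3, 71 and 74 without library 3 of CD33 SNP and of TREM2-KO, and 1 and 0 without replicate numbers 2 and 3.

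Both regions lay upstream of CCNB1, the cyclin that activates CDK1 in mitosis. The farther, 13705 bp outside the gene (chromosome 5, 69152393 to 69153445), stood at 33.8, 33.6 and 35.0 in TREM2-R47H, against 48.1, 65.4 and 71.1 in WT. The nearer, 11887 bp outside (69154330 to 69155263), stood at 3.54, 11.2 and 11.6 in TREM2-R47H, against 21.4, 33.4 and 36.6 in WT, as percentiles among regions called in all libraries. In both, every TREM2-R47H library was below every WT library. The difference in normal score was -0.71 (SE 0.20, adjusted p = 0.161) for the farther region and -0.88 (SE 0.21, adjusted p = 0.0845) for the nearer, and with the block the adjusted p was 0.0313 and 0.0337. The nearer region had an adjusted p of 0.0436 without WT library 1, and over all libraries left out in turn its adjusted p was 0.0436 to 1.00 and that of the farther 0.0529 to 1.00. At the start of CCNB1 (69166455 to 69168052, over the promoter printed above) TREM2-R47H stood at 71.2, 82.6 and 79.4, against 76.8, 89.8 and 87.3 in WT. Those values overlapped, and the adjusted p with the block was 0.195. The nearer region was also covered by 501, 501 and 501 bp of peak in TREM2-R47H, against 790, 631 and 627 bp in WT. The nearer region stood at 18.6, 8.6 and 21.2 in TREM2-KO and at 20.3, 10.5 and 14.8 in INPP5D SNP, neither past the adjusted threshold. Every library of these lines was also below every WT library there, so this trait was not particular to TREM2-R47H. The share of all regions without such overlap is not given here.

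**Figure D5:**
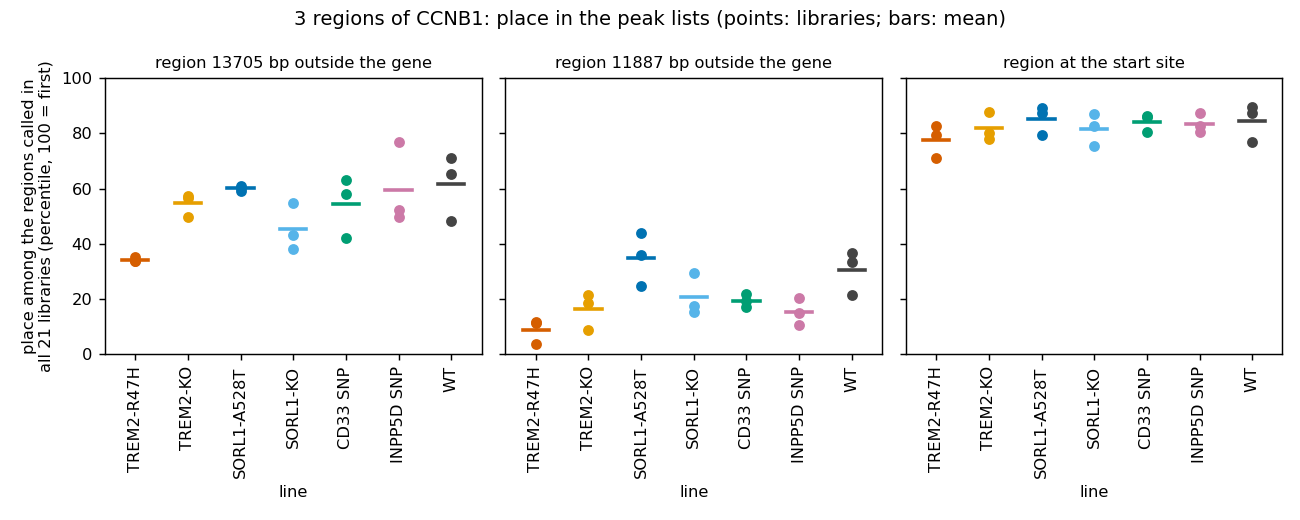
The 3 panels give the place (vertical axis, percentile among the 25599 regions called in all libraries) of the 3 regions of CCNB1 in the 3 libraries of each line, with a bar for the mean. TREM2-R47H libraries lie below WT at the 2 upstream regions, with 33.6 to 35.0 and 3.54 to 11.6, and overlap with WT at the start. At the region nearer to the gene, the TREM2-KO and INPP5D SNP libraries also lie below every WT library.

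In the other lines 0 of 55 regions passed the test of place. All regions passed in 0% for TREM2-KO, 0.0469% for SORL1-A528T, 0.00391% for SORL1-KO, 0.00391% for CD33 SNP and 0% for INPP5D SNP. At an unadjusted p under 0.05 the listed regions numbered 2 in TREM2-KO (all regions 2.95%), 0 in SORL1-A528T (6.03%), 1 in SORL1-KO (4.5%), 2 in CD33 SNP (1.67%) and 2 in INPP5D SNP (2.93%). With the block 0 of 55 passed in each, against 0.0234%, 0.152%, 0.0156%, 0.00781% and 0.00391% of all regions in the same order. An unadjusted p under 0.05 with the block was that of 3 in TREM2-KO (all regions 5.95%), 4 in SORL1-A528T (11.9%), 6 in SORL1-KO (10.4%), 3 in CD33 SNP (3.8%) and 4 in INPP5D SNP (5.79%). The smallest p in TREM2-KO was that of a region inside BUB1, the checkpoint kinase, at 29.9, 22.5 and 30.4, against 33.1, 65.5 and 47.5 in WT (adjusted p = 1.00). In SORL1-A528T it was a region inside CDK6, at 78.4, 68.6 and 63.6, against 83.3, 81.5 and 86.2 in WT (adjusted p = 0.885). In SORL1-KO it was the start of CCNE1, the cyclin E that activates CDK2, at 48.1, 53.7 and 52.9, against 69.9, 68.3 and 64.7 in WT. All SORL1-KO values were below all WT values, as was also so at the BUB1, CDK6 and MCM2 regions named here for the other lines. The share of all regions without such overlap is not given here. The CCNE1 difference was -0.42 (SE 0.17, adjusted p = 0.999). With the block a region 4973 bp outside MAD2L1 had the smallest p in SORL1-KO instead, with -0.53 (SE 0.16, adjusted p = 0.335). In CD33 SNP it was the start of MCM2, at 47.8, 20.5 and 31.1, against 48.5, 57.9 and 61.2 in WT (adjusted p = 1.00).

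Peak widths gave no call among the listed regions. In log2 covered bp, less the median of each library, 0 of 55 listed regions passed in any line, against 0.00781% of 25599 regions in TREM2-R47H and 0% in TREM2-KO, SORL1-A528T, SORL1-KO, CD33 SNP and INPP5D SNP. At an unadjusted p under 0.05 limma gave 2 listed regions in TREM2-R47H (all regions 5.04%) and 1 in TREM2-KO (2.43%). It gave 0 in SORL1-A528T (5.09%), SORL1-KO (3.29%), CD33 SNP (2.23%) and INPP5D SNP (2.34%). With the block, which pairs widths in all lines, it gave 3 in TREM2-R47H (8.52%), 1 in TREM2-KO (4.32%), 2 in SORL1-A528T (7.93%), 1 in SORL1-KO (6.11%), 0 in CD33 SNP (4.21%) and 1 in INPP5D SNP (4.29%), and 0 passed the adjusted threshold. The nearer CCNB1 region had the smallest p in TREM2-R47H, with -0.53 (SE 0.20, adjusted p = 0.904, and 0.388 with the block). The start of E2F1 had the smallest in TREM2-KO, at 2512, 2195 and 2325 bp, against 2450, 501 and 1659 bp in WT (0.90, SE 0.36, adjusted p = 1.00). The groups overlapped, and WT library 2, at 501 bp, was also the lowest in place among the 21 lists. The difference was 0.41 without WT library 2, and 0.35 to 1.25 over all libraries left out. In SORL1-A528T a region inside CDK6 had the smallest p, at 2777, 901 and 2178 bp, against 2875, 1828 and 2953 bp in WT (-0.49, SE 0.25, adjusted p = 1.00). The difference was -0.06 without SORL1-A528T library 2, and -0.82 to -0.06 over all libraries left out. With the block the smallest p was instead that of a region 19054 bp outside MCM3, at 2348, 1444 and 3861 bp in SORL1-A528T, against 4589, 1760 and 4174 bp in WT (-0.44, SE 0.16, adjusted p = 0.489), lower in each of the 3 pairs. The start of CDC25C followed, with 0.46 (SE 0.21, adjusted p = 0.622). In SORL1-KO it was a region outside CCNE1, at 2789, 2916 and 2798 bp, against 3108, 1457 and 1967 bp in WT (0.45, SE 0.22, adjusted p = 1.00, and 0.22 to 0.72 with libraries left out). In both comparisons the groups overlapped. In CD33 SNP it was a region inside CDC25C, at 1335, 1109 and 1345 bp, against 1151, 831 and 1060 bp in WT (0.23, SE 0.13, adjusted p = 1.00). In INPP5D SNP it was again the start of E2F1, at 2382, 1482 and 2139 bp, with a difference of 0.67 (SE 0.36, adjusted p = 1.00) from the same WT widths, and these groups overlapped too. That difference was 0.18 without WT library 2, and 0.18 to 1.02 over all libraries left out.

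Regions called in all 3 libraries of a line and none of the 3 of WT, or the reverse, were also counted, as a description with no test. None of the 206 was gained in any line, against 0.127% of all regions in TREM2-R47H, 0.048% in TREM2-KO, 0.0114% in SORL1-A528T, 0.0624% in SORL1-KO, 0.0954% in CD33 SNP and 0.0276% in INPP5D SNP. In TREM2-R47H 4 of 206 were lost (1.94%), against 0.303% of all regions. None was lost in the other lines, where all regions gave 0.0576% in TREM2-KO, 0.487% in SORL1-A528T, 0.233% in SORL1-KO, 0.0414% in CD33 SNP and 0.142% in INPP5D SNP.

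The 4 lost regions were at genes of mitosis and of entry into S phase. A region 5721 bp outside CDK6 (chromosome 7, 92598347 to 92599200) was called in 18 libraries, all but those of TREM2-R47H. Regions 21492 bp and 38327 bp outside MAD2L1 (chromosome 4, 120088340 to 120089199 and 120105175 to 120106040) were called in 14 and 16 libraries and in 0 of TREM2-R47H. A region inside AURKA, the kinase of spindle poles (chromosome 20, 56371254 to 56372047), was called in 9 libraries, 3 of them WT, and stood at 12.1, 1.60 and 39.7 in the WT lists. In the WT lists the CDK6 region stood at 39.9, 60.6 and 77.2 and the farther MAD2L1 region at 58.8, 9.36 and 63.0. With all lists cut to 39711 peaks none of the 4 was all-or-none, 2 other regions were lost in TREM2-R47H, at E2F3 and MKI67, and 3 were gained, at CDKN2A in TREM2-KO, CCND3 in SORL1-A528T and GINS1 in CD33 SNP. A cut can only remove calls, so the 4 left the count because a WT list no longer called them. The set of all-or-none regions thus changed with the cut, which cannot show why TREM2-R47H lacked the 4.

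The wider list of cell cycle genes gave 390 regions and no call by gene. Of its 31 genes with at least 5 regions 0 passed in any line, and 22 of 31 had a lower and 9 a higher adjusted call in TREM2-R47H than in WT, with a median difference of -0.0565, against a median of 0.00737 over all genes and 0.0467 over the 15 listed genes. At an unadjusted p under 0.05 were 2 higher and 3 lower of the 31 in TREM2-R47H, against 8.47% of all genes. Lower against the same WT were 20 in TREM2-KO, 18 in SORL1-A528T, 21 in SORL1-KO, 19 in CD33 SNP and 14 in INPP5D SNP. A majority of lower genes was thus not particular to TREM2-R47H. At that unadjusted p were 4 lower in SORL1-KO (all genes 4.71%), and 1 higher and 1 lower in SORL1-A528T (3.99%). There was 1 higher in CD33 SNP (2.48%) and in INPP5D SNP (2.88%), and 0 in TREM2-KO (3.47%). In this list TREM2-R47H gained 1 region (0.256%, against 0.127% of all regions), at the clamp loader subunit RFC3. It lost 3 (0.769%, against 0.303% of all regions), at the kinetochore protein CENPF and the RB1 relative RBL2. The other lines gained none of the 390. They lost 0 in TREM2-KO (all regions 0.0576%), 2 in SORL1-A528T (0.487%), 3 in SORL1-KO (0.233%), 1 in CD33 SNP (0.0414%) and 2 in INPP5D SNP (0.142%). By place, 2 of its 80 regions were lower in TREM2-R47H (adjusted p under 0.05), while all regions gave 0.395% lower.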

How the data were processed

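ATAC-seq peak lists of 21 libraries were used. The submitters' processing notes name cutadapt 1.18, STAR 2.7, HOMER 4.10 and DESeq2, without saying what each did. Per the file headers, the authors called peaks in each library alone with HOMER findPeaks (peak size 500, local fold 4.00 over 10000 bp, Poisson p 1.00e-04). The deposited score is 1 for each peak, so only positions and file order carry information. Any shift of reads for the transposase, and the genome build, are not given in the sources used here. Of 39948 gene ends in the RefSeq table of GRCh38.p14, 21.9% fell in regions that every library called, and 2.75% and 2.86% after shifts of 10 kb, so positions are read as GRCh38. Peaks on Y and M were left out (1318 peaks).

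Peaks sharing 1 bp were merged over all libraries, and 131157 of 166736 regions (78.7%) had a nearest protein-coding gene within 100 kb. Calls per gene, widths and list places were tested with limma 3.58.1 (R 4.3.3) over all 21 libraries in 7 groups, with Benjamini-Hochberg adjustment over all features. In simulated data for TREM2-R47H against WT, 0.3 added to the call rate of genes gave a mean estimate of 0.206 and 17.7% called. With 0.5 added these were 0.315 and 44.0%. Widths with 0.6 added in log2 were called in 7.0% and with 1.2 in 78.0%, and places were not simulated. A count of 0 therefore does not show that nothing changed. Alternatives were other filters, list lengths, scalings, a replicate block, and libraries left out. Same-numbered libraries of an edited line and of WT deviated together in widths (18 of 18 pairs, r 0.111 to 0.494). SORL1-A528T library 3 went in widths with WT library 1 as well (r 0.301, against 0.217 with WT library 3). In places r was 0.117 to 0.666 in 5 lines. In SORL1-A528T it was 0.447, 0.434 and 0.0869, and the low value of replicate 3 left this line unpaired for places. In calls per gene r ran from -0.0346 to 0.247, and no line was taken as paired. Widths in all lines and places in 5 lines are therefore paired by number.

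Full values are given for members past a threshold, with the smallest p of a comparison, with an all-or-none region, with a start region missing from a library, or with none. The members, the wider list, the markers and the motifs were chosen with earlier results of these data known.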

Additional observations from a re-analysis of the deposited data

How the results depend on the processing

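Counts over all features moved with the replicate block and with other settings. For places the block gave 804 regions in TREM2-R47H (2 of them listed), 6 in TREM2-KO and 39 in SORL1-A528T, where places were not taken as paired. It gave 4 in SORL1-KO, 2 in CD33 SNP and 1 in INPP5D SNP. For widths it gave 3 in TREM2-R47H, against 2 without it, and 1 in SORL1-A528T, none of them listed. In the test of calls per gene no listed gene passed with the block. Under the block the places of the CCNB1 regions differed by -0.71 and -0.88 with the adjusted p under 0.05. Untransformed percentiles gave 81 places in TREM2-R47H and 2 each in CD33 SNP, INPP5D SNP and SORL1-KO. Quantile normalization and the widest single peak each gave 1 width in TREM2-R47H, and the widest peak 1 in SORL1-A528T. Equal list lengths gave 1 gene in TREM2-R47H, 0 in INPP5D SNP, 3 gained and 2 lost listed regions. The 1 gene of INPP5D SNP went to 0 with at least 1 or 10 regions per gene, regions within 10 kb, gene-end regions alone and a cover of 50%. Within 10 kb, 2 lost regions were left, and at a cover of 50% 16 listed genes had a start region in every library, with no count over all genes. The difference of CDKN2A in SORL1-A528T turned to 0.0252 with gene-end regions alone, and that of MCM3 in CD33 SNP to -0.000419 with equal lists. The cause of these moves was not tested.

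With libraries or replicate numbers left out, calls were 0 to 1 genes in INPP5D SNP and in SORL1-KO, 0 to 336 places in TREM2-R47H (0 to 1 listed), 0 to 17 in SORL1-A528T, 0 to 2 in TREM2-KO and CD33 SNP, 0 to 1 in SORL1-KO and INPP5D SNP, and 0 to 2 widths in TREM2-R47H and 0 to 7 in SORL1-A528T. Gained listed regions were 1 to 8, lost ones 9 to 35, since 2 libraries a line meet the rule more often, and start regions 35 to 38. Without the libraries titled SORL1-A528T the listed genes kept 0 calls in each test of the other 5 lines.

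Depth limits all of this: replicate 2 had the fewest tags, a weak region can miss the threshold in it, and lists without heights cannot show a change within a called region except through width and order. Listed genes with under 5 regions, 25 of 40, had no main test of their calls.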
